A study of Mus musculus with 3 samples.

Results

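The mitochondrially encoded genes are the genes carried on the mouse mitochondrial chromosome. They were taken as every feature whose symbol starts with mt-, which gave 37 of 55450 features: 13 protein genes, 2 ribosomal RNA genes and 22 transfer RNA genes. RNA was counted in single cells of dissociated mouse pancreas. Each of the 3 groups is 1 library, built with the 10x 3-prime kit, version 3. The series asks how treadmill training acts on the pancreas of diabetic mice. The library of mice labelled none and sedentary is called none, that of sedentary diabetic mice diabetic sedentary, and that of diabetic mice with training exercise, and values are given in this order. The series text names male db/db mice, trained from 6 weeks of age; the db allele disrupts the receptor for leptin in the whole body. Neither genotype nor age is stated for the mice of the none library. The 3 that closes every title is left unexplained by the labels, so the number of animals behind a library is not known here. Without replicates no test between groups was made, and the exact 95% intervals given in parentheses cover counting error only.

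Mitochondria keep a small genome of their own, which is copied into long RNAs from both strands and cut into single messages, ribosomal RNAs and transfer RNAs. Its protein genes encode core subunits of respiratory complexes I, III and IV and of the ATP synthase (complex V), while all other subunits come from the nucleus. Most members are read from one direction, and mt-Nd6 with some transfer RNAs from the other. In single-cell data the share of mitochondrial RNA is also widely used as a sign of damaged cells, and acinar cells, which make the digestive enzymes, are rich in both secretory RNA and mitochondria.

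On the GRCm38 build the members lie end to end on chrM without introns. The 28 members on the plus strand include both ribosomal RNAs, mt-Rnr1 (chrM:70-1024) and mt-Rnr2 (chrM:1094-2675), and 12 protein genes. Complex I subunits are mt-Nd1 (chrM:2751-3707), mt-Nd2 (chrM:3914-4951), mt-Nd3 (chrM:9459-9806), mt-Nd4l (chrM:9877-10173), mt-Nd4 (chrM:10167-11544), mt-Nd5 (chrM:11742-13565) and mt-Nd6 (chrM:13552-14070). The cytochrome b of complex III is mt-Cytb (chrM:14145-15288). The oxidase subunits of complex IV are mt-Co1 (chrM:5328-6872), mt-Co2 (chrM:7013-7696) and mt-Co3 (chrM:8607-9390), and the ATP synthase subunits are mt-Atp8 (chrM:7766-7969) and mt-Atp6 (chrM:7927-8607). The other 9 members, mt-Nd6 and 8 transfer RNAs, lie on the minus strand. Pairs of protein genes also overlap: mt-Atp8 and mt-Atp6 by 43 bases, mt-Nd4l and mt-Nd4 by 7 bases, and mt-Nd5 and mt-Nd6, on opposite strands, by 14 bases. On one strand mt-Atp6 and mt-Co3 also share the base at chrM:8607. Both longer overlaps on one strand are shown from the GENCODE transcripts with the shared bases in capitals, because a read that covers these bases touches both genes.
mt-Atp8 and mt-Atp6 overlap (chrM:7897-7999, plus strand): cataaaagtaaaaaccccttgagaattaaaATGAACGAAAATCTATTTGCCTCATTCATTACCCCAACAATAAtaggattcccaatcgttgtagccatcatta
mt-Nd4l and mt-Nd4 overlap (chrM:10137-10203, plus strand): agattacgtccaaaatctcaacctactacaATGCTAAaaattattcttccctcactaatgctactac

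The mitochondrial genome also has copies in the nuclear genome, and 17 annotated genes matched a member over at least 100 bases at 90% identity or more. Of these, 7 lie side by side on the minus strand of chromosome 1. Gm28661 copies mt-Co2, Gm28437 copies mt-Co3, Gm10925 copies mt-Atp6 and Gm10222 copies mt-Nd4l, each without a mismatch to within 3 bases of the member's 3′ end. Gm28439 copies the first 876 bases of mt-Nd4 without a mismatch. Gm29216 copies the last 483 bases of mt-Co1 with 1 substitution, A1066T. Gm28438 (chr1:24612775-24613119) copies 345 of the 348 bases of mt-Nd3 with 1 substitution, T3C. Positions are counted from 1 at the member's 5′ end, the member's base is given first, and T3C lies at position 9461 of chrM. The bases around both substitutions follow with the differing base in capitals, since each is the only difference within the aligned stretch.
mt-Nd3 start (chrM:9459-9548, plus strand): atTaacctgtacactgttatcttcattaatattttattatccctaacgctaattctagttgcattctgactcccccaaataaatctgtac
Gm28438 start (chr1:24613030-24613119, minus strand): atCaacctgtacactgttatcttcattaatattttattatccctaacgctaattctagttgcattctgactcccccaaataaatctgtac
mt-Co1 stretch (chrM:6390-6449, plus strand): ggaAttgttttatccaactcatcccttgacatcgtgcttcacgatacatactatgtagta
Gm29216 stretch (chr1:24616129-24616188, minus strand): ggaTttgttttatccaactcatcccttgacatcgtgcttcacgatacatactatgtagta
How the deposited counts treated reads that fit a member and its copy equally is not stated in the sources used here, so the levels of mt-Co1, mt-Co2, mt-Co3, mt-Atp6, mt-Nd3 and mt-Nd4l are uncertain.

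The libraries held 9958, 12743 and 18433 barcodes with 54128454, 80185752 and 45209034 UMIs, and a median of 3951.5, 4640 and 1887 UMIs per barcode. Pairs of libraries shared 32 to 61 barcode sequences, and 0 were in all 3. After a minimum of 500 UMIs and 200 genes, and without the 5% of barcodes that scored highest as doublets, 8659, 10972 and 14202 cells were kept, with no ceiling on mitochondrial RNA. Cells were clustered without the members and their copies. Classes named from markers and held by at least 50 cells of each library were acinar-like (6150, 5803 and 6535 cells), acinar-RNA-rich (1004, 2785 and 5238), ductal-like (160, 663 and 754), endothelial-like (126, 533 and 412), fibroblast-like (282, 518 and 337) and macrophage-like (289, 194 and 202). Clusters in which 21 acinar markers gave a median of over 50% of UMIs, but which earned no name, are called acinar-RNA-rich. They are mixed: the leading genes of cluster 10 (15, 118 and 843 cells) include the macrophage genes Fcna, Folr2 and Lyve1, those of cluster 8 (741, 439 and 143) the nuclear RNAs Neat1 and Malat1, and those of cluster 23 (8, 84 and 83) the division genes Mki67 and Birc5. The libraries lay in different clusters of the same class: acinar-like clusters 2 and 4 held 3547 and 1991 cells of none but 187 and 95 of diabetic sedentary, and ductal-like cluster 17 held 0, 190 and 330 cells. Endothelial-like cluster 19, with a median of 56.2% acinar UMIs, held 28, 89 and 175.

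Mitochondrial RNA made up more of the RNA in diabetic sedentary than in none, and more again in exercise, in each of the 6 classes. Over all barcodes the members held 342012, 1540111 and 2961974 UMIs, a share of 0.632%, 1.92% and 6.55%. In acinar-like cells the share was 0.474% (0.471 to 0.476), 1.43% (1.42 to 1.43) and 6.28% (6.27 to 6.30), so that exercise stood 13.3 times above none. In acinar-RNA-rich cells it was 0.955%, 1.69% and 6.04%, and 0.964%, 1.68% and 5.78% without cluster 10. Ductal-like cells, which line the ducts, held 1.18%, 2.94% and 4.37%, the narrowest range of the 6 classes at 3.72 times from none to exercise. Endothelial-like cells, which line blood vessels, held 1.12%, 4.18% and 7.94%. In fibroblast-like cells the share was 1.16%, 3.28% and 5.57%, and macrophage-like cells held 0.958%, 3.52% and 7.23%. In none the acinar-like cells were the lowest of these classes, while in exercise the ductal-like cells were.

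**Figure D1:**
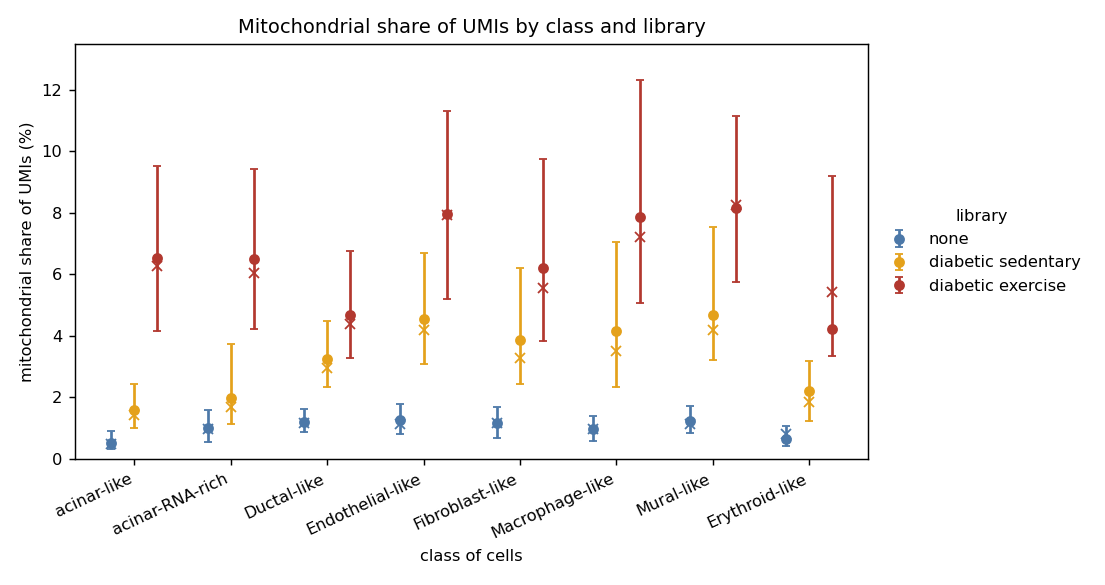
Mitochondrial share of UMIs (%) in 8 classes of cells and 3 libraries. Points are medians over cells with bars from the lower to the upper quartile, and crosses are the share of summed UMIs; in each class none is lowest and exercise highest, and the spread over cells is widest in exercise.

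Smaller classes showed the same order of libraries in the summed UMIs, apart from B-like cells. Mural-like cells, the muscle and pericytes of vessel walls, held 1.12%, 4.20% and 8.25% (42, 147 and 85 cells), and T-like cells 1.12%, 3.81% and 5.34% (190, 20 and 23 cells). B-like cells held 1.34%, 2.59% and 2.15%, on 231, 8 and 10 cells. Erythroid-like barcodes (49, 39 and 43) held 0.795%, 1.85% and 5.42%, although mature red blood cells have no mitochondria. Acinar markers made up 51.4%, 43.4% and 35.6% of the UMIs of these erythroid-like barcodes. How far RNA shared between barcodes sets the level in the other classes was not tested beyond the subtraction given below.

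Scaled by TMM, a factor that centres the bulk of genes, the summed members of diabetic sedentary stood above none by 2.11 times (2.08 to 2.15) in ductal-like, 2.25 times in fibroblast-like, 2.40 times in acinar-RNA-rich, 2.63 times in endothelial-like, 3.20 times in macrophage-like and 4.22 times in acinar-like cells. Exercise stood above diabetic sedentary by 1.34 times (1.33 to 1.35) in ductal-like, 1.56 times in fibroblast-like, 2.09 times in macrophage-like, 2.13 times in endothelial-like, 2.85 times in acinar-like and 3.43 times in acinar-RNA-rich cells. The diabetic sedentary library enters both sets of ratios. With RNA of acinar barcodes subtracted, the exercise ratio was 1.07 in ductal-like and in fibroblast-like cells and to 1.60 in endothelial-like cells. Scaled by total UMIs alone, the acinar-like ratio was 4.40 in exercise over diabetic sedentary.

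The mitochondrial share was mostly lower in deeper cells of every library, and depth differed between the libraries. The shallowest acinar-like cells, with 500 to 1000 UMIs, were an exception at 1.44% in none and 8.41% in exercise, below the next bin. Acinar-like cells had a median of 4761, 6131 and 2082 UMIs per cell, and endothelial-like cells 2786, 2462 and 1848.5. In acinar-like cells with 1000 to 2000 UMIs the share was 1.86%, 4.91% and 9.09%, and in those with 2000 to 5000 UMIs 0.821%, 2.52% and 5.92%. With 5000 to 10000 UMIs it was 0.452%, 1.58% and 2.27%, and above 10000 UMIs 0.188%, 0.817% and 0.644%, the last from 36 cells. Thus the order of the libraries held in each of these bins except the deepest, where diabetic sedentary was above exercise in summed UMIs but below it in the median cell (0.812% and 1.11%). Acinar-RNA-rich cells with 500 to 1000 UMIs also broke the order, at 2.25%, 11.2% and 8.25% (47, 96 and 310 cells), against 1.79%, 8.03% and 8.92% with 1000 to 2000 UMIs.

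In acinar-like cells from 1000 UMIs up, the number of mitochondrial UMIs per cell moved far less with depth than the share did. This did not hold below: with 500 to 1000 UMIs the medians were 11 in none (26 cells) and 64 in exercise (54 cells). Acinar-like cells of exercise held a median of 149, 148, 142 and 129 mitochondrial UMIs from the bin that starts at 1000 UMIs to the bin above 10000. In diabetic sedentary the medians over the same bins were 66, 88, 105 and 115, and in none 21, 26, 28 and 32. Within each of these bins exercise was thus highest and none lowest in mitochondrial UMIs per acinar-like cell, though depth still differs between libraries inside a bin. Ductal-like cells differed: over the bins from 2000 UMIs up the medians were 49, 78 and 136 in none, 160, 206 and 331.5 in diabetic sedentary and 216.5, 300 and 456.5 in exercise.

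In ductal-like cells with 2000 to 5000 UMIs the share was 1.33%, 4.58% and 6.70%, and with 5000 to 10000 UMIs 1.22%, 3.24% and 4.41%. Endothelial-like cells with 2000 to 5000 UMIs held 1.19%, 4.23% and 6.94%, from 81, 281 and 166 cells. In this depth range the TMM-scaled ratio of exercise over diabetic sedentary was 1.81 in acinar-like and 2.21 in acinar-RNA-rich cells, against 2.85 and 3.43 over all kept cells. For acinar-RNA-rich cells the ratio of diabetic sedentary over none was 3.77 in this range, against 2.40. The range of 2000 to 5000 UMIs was chosen after the data were seen.

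**Figure D2:**
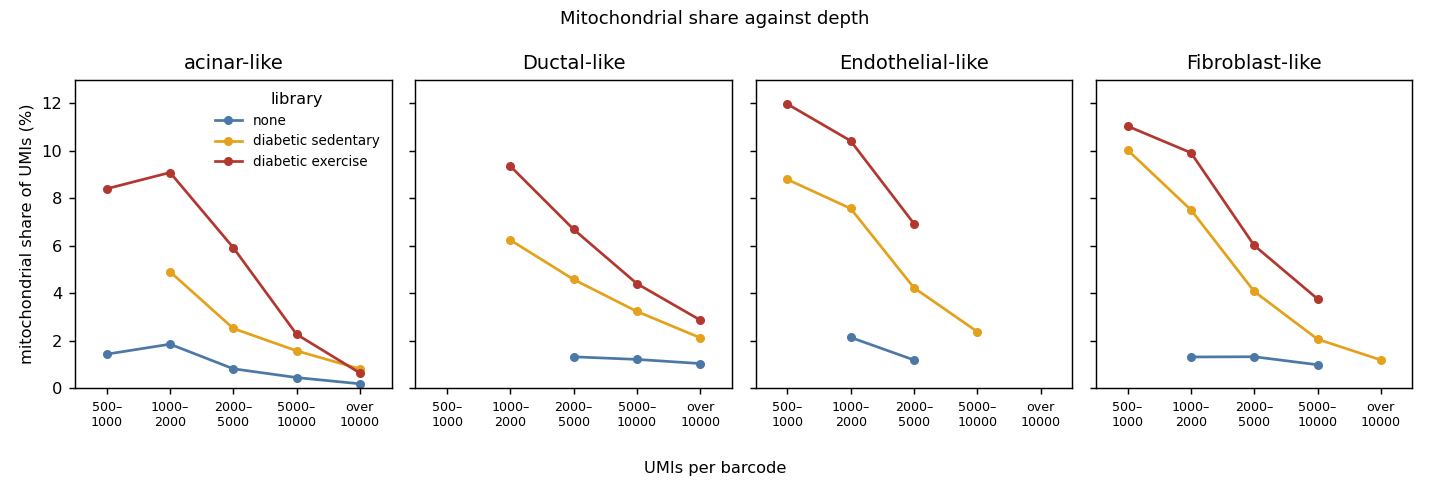
Mitochondrial share of UMIs (%) of summed cells in bins of UMIs per barcode, for 4 classes and 3 libraries; bins with under 20 cells are left out. The share falls from shallow to deep cells in most bins, and in the 4 classes plotted the lines of the libraries stay apart except for acinar-like cells above 10000 UMIs.

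RNA kept in the nucleus moved with some of these values. Malat1, a nuclear long RNA, held 1.89%, 0.133% and 0.0446% of UMIs in acinar-RNA-rich cells and 0.0192%, 0.00489% and 0.0184% in acinar-like cells. In ductal-like cells it held 0.796%, 1.11% and 1.48%, in the order of the mitochondrial share, and in endothelial-like cells 0.502%, 0.672% and 0.640%. Acinar markers held 27.2%, 18.2% and 14.5% of ductal-like UMIs and 46.1%, 30.2% and 35.5% of endothelial-like UMIs. The part of nuclear RNA, acinar RNA and cluster mix in the mitochondrial share was not tested. Fewer mitochondrial RNAs and more of other RNA in a cell cannot be told apart from a share.

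Member by member, most of the genes with enough UMIs were at least 2-fold higher in diabetic sedentary than in none. A member was measured where it had at least 20 UMIs over both libraries, and the share of all measured genes that passed the same fold is given beside the first count in each class and comparison. In acinar-like cells 17 of 20 measured members were 2-fold or more higher (4.22% of all genes) and 0 were lower (6.20% of all genes). In acinar-RNA-rich cells 15 of 17 were higher (background 8.0%) and 0 lower (background 16.5%). In ductal-like cells 11 of 14 were higher (background 6.10%) and 0 lower (3.84%), and in endothelial-like cells 11 of 14 (8.24%) and 0 (5.80%). In fibroblast-like cells 11 of 14 were higher (5.82%) and 0 lower (4.34%), and in macrophage-like cells 12 of 13 (4.57%) and 0 (4.30%). The median log2 ratio of the measured members lay between 1.28 in ductal-like and 2.06 in acinar-like cells, against medians of all genes from -0.08 to 0.03 over both comparisons.

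A smaller share of the measured members passed the fold between exercise and diabetic sedentary in each class, and mt-Nd3 went the other way in each class. In acinar-RNA-rich cells 16 of 25 measured members were 2-fold or more higher (background 7.10%), and in acinar-like cells 14 of 21 (6.62%). Among cells of 2000 to 5000 UMIs alone these counts were 9 and 7. The counts were 9 of 15 in endothelial-like cells (5.11%), or 5 without barcodes above 10% mitochondrial UMIs, 7 of 14 in macrophage-like cells (4.37%), 5 of 15 in fibroblast-like cells (4.04%) and 5 of 15 in ductal-like cells (3.66%). In each class 1 member was 2-fold or more lower, mt-Nd3, where all genes gave 3.37% in acinar-RNA-rich, 1.99% in acinar-like, 3.54% in endothelial-like, 4.47% in macrophage-like, 3.62% in fibroblast-like and 1.25% in ductal-like cells. The ductal-like and fibroblast-like cells thus had few members past 2-fold, and the same 5 genes made up both counts: mt-Atp6, mt-Co2, mt-Co3, mt-Nd4l and mt-Rnr1.

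**Figure D3:**
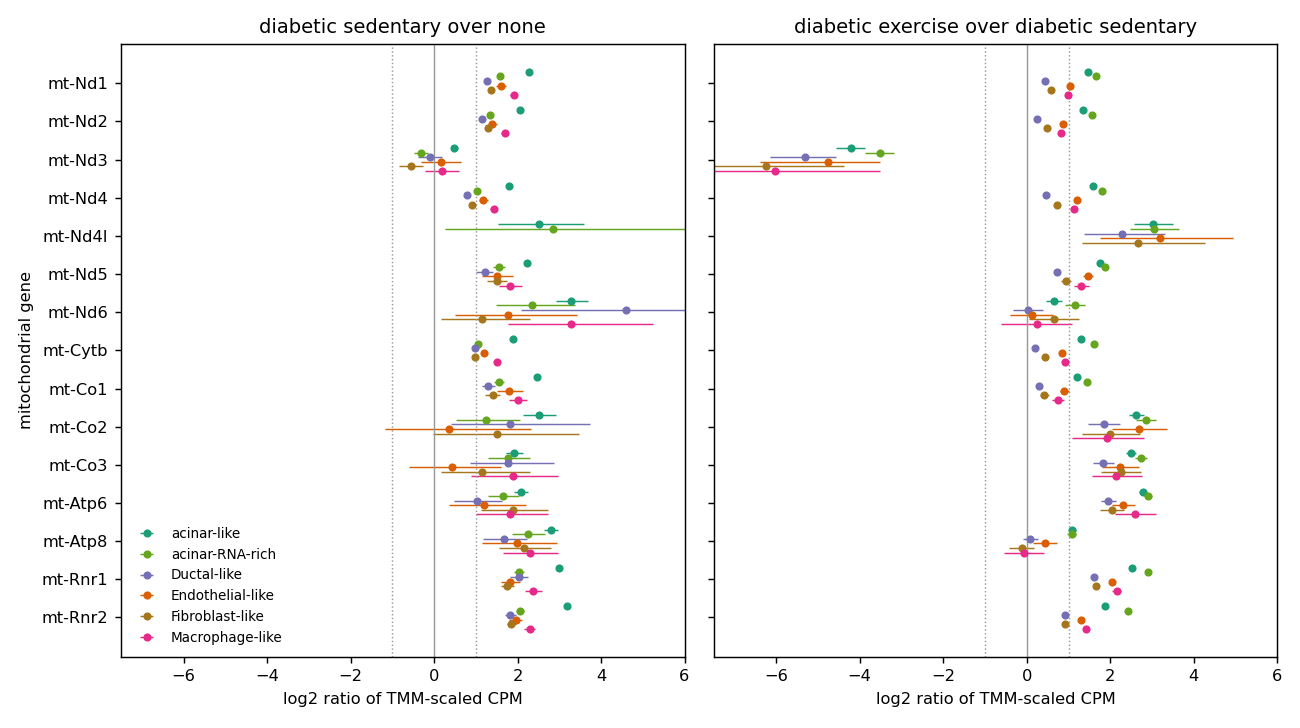
Log2 ratio (no prior count) of TMM-scaled CPM for the 15 protein and ribosomal RNA genes in 6 classes, with exact 95% counting intervals; intervals past the axis are cut and dotted lines mark 2-fold. Members lie mostly above 0 in both comparisons, and mt-Nd3 lies below the 2-fold line in exercise over diabetic sedentary.

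Of the complex I subunits, which take electrons from NADH, mt-Nd4 and mt-Nd1 had among the most UMIs. In acinar-like cells mt-Nd4 stood at 850, 2954 and 8861 CPM (TMM-scaled counts-per-million), with ratios of 3.47 (3.43 to 3.51) for diabetic sedentary over none and 3.00 (2.98 to 3.02) for exercise over diabetic sedentary. In ductal-like cells mt-Nd4 stood at 2916, 5039 and 6917 CPM, with ratios of 1.73 (1.66 to 1.80) and 1.37 (1.35 to 1.39), both short of 2-fold. In endothelial-like cells it stood at 2405, 5463 and 12556 CPM, with ratios of 2.27 (2.12 to 2.44) and 2.30 (2.24 to 2.36). Each library was thus above the one before it for mt-Nd4, with the smallest steps in ductal-like cells.

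mt-Nd1 stood at 601, 2892 and 7999 CPM in acinar-like, 1872, 4484 and 6029 in ductal-like and 1879, 5687 and 11647 in endothelial-like cells. Its ratios over none ranged from 2.40 (ductal-like) to 4.81 (acinar-like), and those of exercise over diabetic sedentary from 1.34 (ductal-like) to 3.15 (acinar-RNA-rich). For mt-Nd2 the ranges over the 6 classes were 2.23 to 4.15 and 1.19 to 2.96. mt-Nd5, the last protein gene of the plus strand before mt-Cytb, had ranges of 2.31 to 4.67 and 1.66 to 3.68. These complex I genes were all higher in diabetic sedentary than in none, and in exercise than in diabetic sedentary, in each class.

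mt-Nd6, the protein gene of the minus strand, was rare. In acinar-like cells it had 65, 488 and 451 UMIs, or 1.48, 14.4 and 22.8 CPM, with ratios of 9.77 (7.53 to 12.9) and 1.58 (1.39 to 1.80). In endothelial-like cells it had 5, 91 and 50 UMIs, with ratios of 3.43 (1.42 to 10.8) and 1.08 (0.752 to 1.55). In ductal-like cells it had 1, 124 and 135 UMIs, which gave 24.1 (4.25 to 961) over none and 1.02 (0.797 to 1.32) in exercise over diabetic sedentary. Thus mt-Nd6 was 2-fold or more higher in diabetic sedentary over none in 6 of 6 classes, beside 4.22% to 8.24% of all genes. It was past 2-fold in exercise over diabetic sedentary only in the acinar-RNA-rich class. Only in acinar-like cells did none alone reach the minimum of 20 UMIs. In the other classes mt-Nd6 was measured through diabetic sedentary, so this minimum itself favours the count of 6 of 6. mt-Nd6 overlaps mt-Nd5, and whether the counting used strand is not stated.

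mt-Cytb, the cytochrome b that passes electrons within complex III, had the most UMIs of any member. In acinar-like cells it stood at 1737, 6453 and 15903 CPM, with ratios of 3.71 (3.68 to 3.75) and 2.46 (2.45 to 2.48). In ductal-like cells it stood at 5525, 10880 and 12527 CPM, with ratios of 1.97 (1.92 to 2.02) and 1.15 (1.14 to 1.16). In endothelial-like cells it stood at 4963, 11465 and 20683 CPM, with ratios of 2.31 (2.20 to 2.43) and 1.80 (1.77 to 1.84). mt-Cytb was past 2-fold in 4 of 6 classes in diabetic sedentary over none and in 2 of 6, both acinar, in exercise over diabetic sedentary.

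The complex IV genes, whose products reduce oxygen to water, had few UMIs apart from mt-Co1. mt-Co1 stood at 85.6, 473 and 1093 CPM in acinar-like cells, with ratios of 5.52 (5.33 to 5.73) and 2.31 (2.26 to 2.36). In ductal-like cells it stood at 359, 881 and 1074 CPM, with ratios of 2.45 (2.20 to 2.73) and 1.22 (1.17 to 1.27). mt-Co2 and mt-Co3 had 129, 754 and 3260 UMIs and 411, 1937 and 8088 UMIs over whole libraries. Over the classes, the ratios of exercise over diabetic sedentary were 3.60 to 7.21 for mt-Co2 and 3.57 to 6.64 for mt-Co3, above those of mt-Co1, which were 1.22 to 2.72. In diabetic sedentary over none the order was not the same: 1.27 to 5.70 for mt-Co2, 1.34 to 3.78 for mt-Co3 and 2.45 to 5.52 for mt-Co1.

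The ATP synthase genes differed from each other, although they overlap on the same message. In acinar-like cells mt-Atp6 stood at 8.62, 36.3 and 250.9 CPM, with ratios of 4.22 (3.75 to 4.74) and 6.90 (6.48 to 7.35). mt-Atp8 stood at 8.19, 57.2 and 121.8 CPM in the same cells, with ratios of 6.98 (6.24 to 7.84) and 2.13 (2.01 to 2.26). In ductal-like cells mt-Atp6 had ratios of 2.03 (1.39 to 3.09) and 3.88 (3.42 to 4.41), and mt-Atp8 3.19 (2.24 to 4.68) and 1.06 (0.946 to 1.20). mt-Atp6 was past 2-fold in exercise over diabetic sedentary in 6 of 6 classes and mt-Atp8 in 2 of 6, both acinar.

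The ribosomal RNAs, which form the mitochondrial ribosome, were higher in diabetic sedentary than in none and higher again in exercise. In acinar-like cells mt-Rnr1 stood at 89.5, 716 and 4132 CPM, with ratios of 8.0 (7.73 to 8.27) and 5.77 (5.69 to 5.85). mt-Rnr2 stood at 167, 1526 and 5564 CPM there, with ratios of 9.13 (8.91 to 9.36) and 3.65 (3.61 to 3.68). In endothelial-like cells mt-Rnr1 stood at 489, 1726 and 7149 CPM and mt-Rnr2 at 958, 3716 and 9210 CPM. mt-Rnr1 was past 2-fold in 6 of 6 classes in both comparisons, and mt-Rnr2 in 6 of 6 and in 4 of 6, the exceptions being ductal-like (1.88) and fibroblast-like cells.

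Transfer RNAs, which carry amino acids to the ribosome and have no long tail of A, were rare. The kit primes on such tails, and the part of this in their counts was not tested. Together the 22 had 177, 573 and 639 UMIs, and no transfer RNA had more than 89 in a library. The 8 on the minus strand held 112, 328 and 384 of these UMIs and the 14 on the plus strand 65, 245 and 255. mt-Ta had the most UMIs (30, 87 and 89), and mt-Ty the fewest (0, 0 and 1). Of the 37 members, 31 had at least 20 UMIs in the 3 libraries together, and the 6 below were all transfer RNAs. Transfer RNAs could be measured only in the acinar-like and acinar-RNA-rich classes, where 3 of 5 and 1 of 2 were 2-fold or more higher in diabetic sedentary over none, and 1 of 6 and 2 of 10 in exercise over diabetic sedentary, beside 4.22% and 8.0%, then 6.62% and 7.10%, of all genes.

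The make-up of the mitochondrial total shifted from mt-Cytb towards ribosomal RNA from none to exercise. mt-Cytb held 39.7%, 35.0% and 30.2% of mitochondrial UMIs in acinar-like cells, 40.6%, 37.8% and 32.5% in ductal-like cells and 36.4%, 32.0% and 27.2% in endothelial-like cells. The ribosomal RNAs held 5.86%, 12.2% and 18.4% in acinar-like, 5.09%, 8.87% and 14.9% in ductal-like and 10.6%, 15.2% and 21.5% in endothelial-like cells. Over the 6 classes the ribosomal share ran from 5.09% up to 10.6%, from 8.87% up to 15.2% and from 14.9% up to 21.5%. The library thus ordered the ribosomal share within each of these 6 classes. The ranges over classes overlapped between none and diabetic sedentary, and narrowly between diabetic sedentary and exercise. Islet-like cells, outside these 6, did not follow this order. They held 15.9 ribosomal UMIs per 100 UMIs of mitochondrial messages in diabetic sedentary (66 cells) and 12.4 in exercise (15 cells).

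Complex I genes kept near the same share of the mitochondrial total throughout, at 50.2% to 53.4%, 49.5% to 53.7% and 48.0% to 50.2% over the 6 classes. Complex IV genes held 2.13% to 2.74%, 2.63% to 3.22% and 2.42% to 3.23%, and complex V genes 0.329% to 0.501%, 0.507% to 0.620% and 0.667% to 0.867%. Minus-strand members held at most 0.160% in any class. mt-Cytb, mt-Nd4, mt-Nd1 and mt-Nd2 together held 84.2% to 89.3%, 79.4% to 85.2% and 73.1% to 78.8% of mitochondrial UMIs.

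The balance of the ribosomal RNAs also set the exercise library apart. Over the 6 classes, UMIs of mt-Rnr1 per UMI of mt-Rnr2 ranged in none from 0.390 up to 0.539, in diabetic sedentary from 0.452 up to 0.531, and in exercise from 0.732 up to 0.799. Exercise thus did not overlap the others, and none and diabetic sedentary did. Per 100 UMIs of mitochondrial messages, acinar-like cells held 6.23, 13.8 and 22.6 UMIs of ribosomal RNA and ductal-like cells 5.36, 9.74 and 17.5. In acinar-like cells with 2000 to 5000 UMIs the ribosomal share of mitochondrial UMIs was 6.27%, 12.0% and 18.3%, and with 5000 to 10000 UMIs 6.05%, 12.3% and 18.9%, so that the libraries kept their order within these bins.

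**Figure D4:**
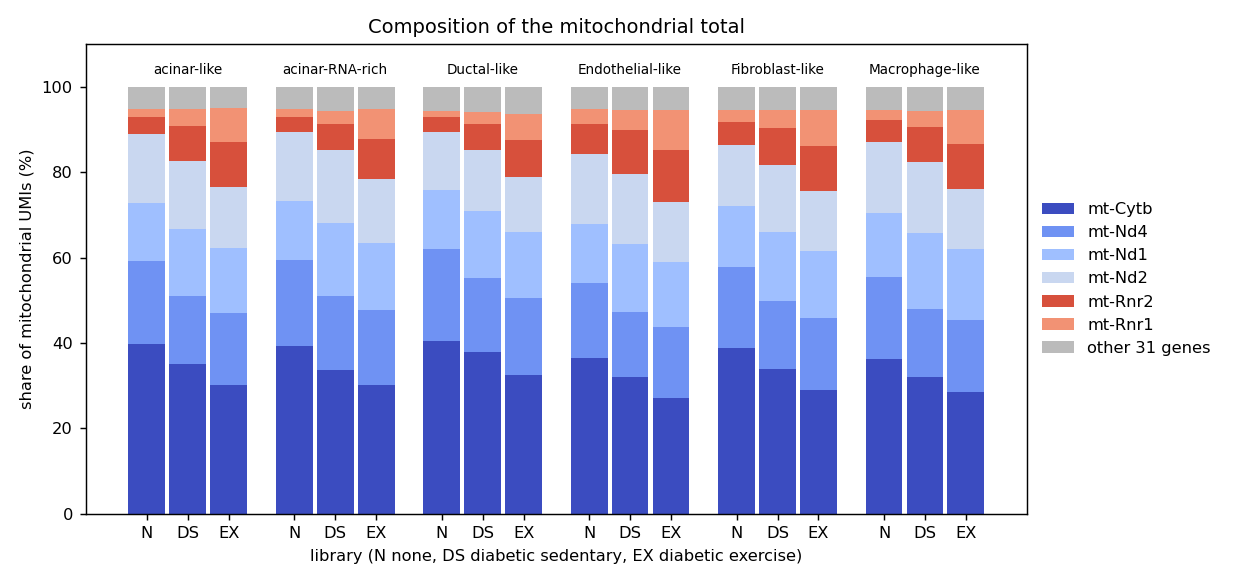
Share of mitochondrial UMIs (%) held by the 6 genes with the most UMIs and by the other 31 genes, as stacked bars for 6 classes and 3 libraries. In each class the mt-Cytb part shrinks and both ribosomal RNA parts grow from none to exercise.

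Levels between members were compared as CPM of the whole library per kilobase of gene. mt-Cytb came first in each library, at 2160, 5785 and 17202 CPM per kilobase. mt-Nd2, mt-Nd1 and mt-Nd4 followed in none (972, 922 and 903), and mt-Nd1, mt-Nd2 and mt-Nd4 in diabetic sedentary (3225, 2967 and 2292) and exercise (10609, 8987 and 8164). mt-Rnr1 stood at 136, 751 and 5245 and mt-Rnr2 at 157, 943 and 4194, so that mt-Rnr1 passed mt-Rnr2 in exercise. Reads of this kit come from near priming sites and not from the whole gene, so division by length is a rough measure.

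Members with a mismatch-free nuclear copy of their 3′ end were at low levels per kilobase. The 4 genes with a mismatch-free copy to their 3′ end (mt-Co2, mt-Co3, mt-Atp6 and mt-Nd4l) had medians of 6.58, 22.3 and 166.8 CPM per kilobase. The 9 protein and ribosomal RNA genes with less than 90% of their 3′ end copied had medians of 157, 943 and 5245, but mt-Nd6 was at 4.27, 31.8 and 63.0. Both genes whose copy has a mismatch stood above the medians of these 4, at 82.9, 325 and 899 CPM per kilobase for mt-Co1 and 205, 207 and 15.1 for mt-Nd3, except mt-Nd3 in exercise. Here the 3′ end is the last 300 bases, scored by windows of 50 bases found unchanged in a copy: 98.8% to 100% of windows for mt-Co1, mt-Co2, mt-Co3, mt-Atp6, mt-Nd3 and mt-Nd4l, 31.9% for mt-Nd2, 1.99% for mt-Nd5, and 0 for mt-Cytb, mt-Nd1, mt-Nd4, mt-Rnr1, mt-Rnr2, mt-Atp8 and mt-Nd6. The 4 genes with a mismatch-free copy held 0.357%, 0.401% and 0.939% of the UMIs of protein and ribosomal RNA genes.

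Among the protein and ribosomal RNA genes, these 4 and mt-Rnr1 were past 2-fold in exercise over diabetic sedentary in each class measured. The 4 genes were 2-fold or more higher in 23 of 23 measured combinations of gene and class, with log2 ratios from 1.83 to 3.08. The filter sums the UMIs of both libraries, so a rare gene can be measured through exercise alone. The 3.08 is mt-Nd4l in endothelial-like cells, counted without its copy. With the copy added it had only 5 UMIs in diabetic sedentary and 25 in exercise. mt-Nd4l was not measured in macrophage-like cells, so its part of the count is partly set by the filter. mt-Co2, mt-Co3 and mt-Atp6 were measured and past 2-fold in each class. The 9 genes whose 3′ end is not copied passed 2-fold in 28 of 54, with log2 ratios from -0.12 to 2.91. In diabetic sedentary over none the counts were 17 of 19 and 50 of 54. Classes share their library, so these combinations are not independent. The copies of these genes moved the same way: over whole libraries Gm28437 had 36, 152 and 394 UMIs, Gm28661 14, 115 and 285, and Gm10925 11, 79 and 210.

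mt-Nd3 was the one member that did not follow the others, and its nuclear copy Gm28438 did. Over whole libraries mt-Nd3 had 3864, 5789 and 237 UMIs, while Gm28438 had 3318, 19063 and 32430. In acinar-like cells mt-Nd3 stood at 48.3, 67.4 and 3.64 CPM, with ratios of 1.40 (1.32 to 1.48) and 0.0541 (0.0421 to 0.0683). In ductal-like cells it stood at 115, 107 and 2.70 CPM, with ratios of 0.932 (0.762 to 1.15) and 0.0252 (0.0140 to 0.0420). In endothelial-like cells it had 45, 266 and 5 UMIs. mt-Nd3 was thus 2-fold or more lower in exercise in 6 of 6 classes and past 2-fold in 0 of 6 in diabetic sedentary over none.

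As a share of the UMIs of the pair, mt-Nd3 held 53.8% (52.6 to 55.0), 23.3% (22.8 to 23.8) and 0.725% (0.636 to 0.823) in the 3 libraries. The share followed the library in each class compared: acinar-like cells gave 52.2%, 23.2% and 0.623%, ductal-like cells 49.8%, 24.2% and 0.652%, and fibroblast-like cells 55.3%, 23.7% and 0.297%. Over clusters with at least 20 UMIs of the pair it ran from 36.4% up to 71.3% (none, 21 clusters), from 4.08% up to 34.7% (diabetic sedentary, 30 clusters) and from 0% up to 2.41% (exercise, 32 clusters), with no overlap. In exercise 10 clusters were at 0; for cluster 14, 0 of 358 UMIs allows a share of up to 0.838%. T-like cells were highest in none, at 71.3%, but lowest in diabetic sedentary, at 4.08% of 49 UMIs.

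Within a library, single cells differed too. Of 76 cells of none with at least 5 UMIs of the pair, 28 held only mt-Nd3 and 14 only Gm28438, and 12 lay between 25% and 75% mt-Nd3. Of 956 such cells of diabetic sedentary, 12 held only mt-Nd3, 326 only Gm28438 and 294 lay in between. Of 1051 such cells of exercise, 0 held only mt-Nd3, which allows a share of up to 0.285%, and 1010 held only Gm28438. A single cell's share rests on few UMIs, so cells near either end are not clearly of one kind. The spread was also present among cells with at least 10 UMIs of the pair. Of 57 such cells of diabetic sedentary, 15 held only Gm28438, 26 more lay below 25% mt-Nd3, 5 between 25% and 75%, and 11 above 75%. Only 6 cells of none had as many UMIs, with 0 between 25% and 75%. In exercise 53 of 57 held only Gm28438. The source of this spread was not tested.

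**Figure D5:**
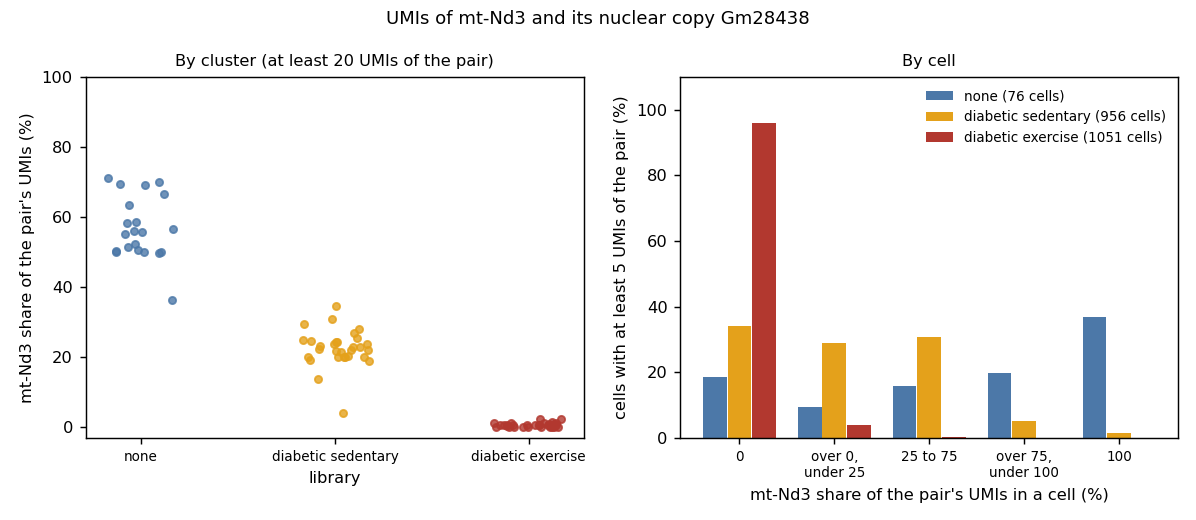
Share of mt-Nd3 in the UMIs of mt-Nd3 and its nuclear copy Gm28438 (%). Left, each point is a cluster with at least 20 UMIs of the pair in that library; right, bars give the percentage of cells with at least 5 UMIs of the pair in 5 ranges of the share, and the clusters of the 3 libraries do not overlap.

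Summed, mt-Nd3 and Gm28438 did not show the drop of mt-Nd3 alone, but the sum lagged behind the mitochondrial total. It did not lag behind each member: in fibroblast-like cells exercise over diabetic sedentary was 1.05 for the sum and 0.917 for mt-Atp8. Their summed UMIs came to 2.10, 1.61 and 1.10 per 100 mitochondrial UMIs. With the copy added, exercise over diabetic sedentary was 2.02 (1.96 to 2.07) in acinar-like, 2.16 (2.09 to 2.24) in acinar-RNA-rich, 1.42 (1.30 to 1.55) in endothelial-like and 0.937 (0.884 to 0.993) in ductal-like cells. Diabetic sedentary over none was 3.14 (3.02 to 3.25) in acinar-like and 1.92 (1.67 to 2.20) in ductal-like cells. The 2-fold or more lower level of mt-Nd3 in exercise was therefore not present in the sum of both genes in any of the 6 classes, where the lowest ratio was that of ductal-like cells. Whether the base at position 3 differs between the animals of the libraries was not tested, as the files hold no reads.

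At a fixed depth more of the members were seen per cell in the diabetic libraries. Acinar-like cells thinned to 1000 UMIs held a mean of 7.32, 18.8 and 73.2 mitochondrial UMIs. The number of members seen thus follows largely from the mitochondrial share and is not a separate result. In acinar-like cells thinned to 1000 UMIs the mean number of members with a UMI was 3.20, 5.47 and 7.99, after 26, 11 and 54 shallower cells were left out. Without thinning it was 6.04, 8.55 and 9.17. Endothelial-like cells gave 4.78, 7.43 and 8.41 after thinning and 6.80, 8.93 and 9.34 before. Ductal-like cells gave 4.47, 6.80 and 7.75 after thinning.

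Nuclear genes of the respiratory chain differed far less between libraries than the members. Of 79 listed genes, those measured passed 2-fold in 4 of 461 combinations of gene and class in diabetic sedentary over none (3 higher and 1 lower) and in 3 of 459 in exercise over diabetic sedentary (2 higher and 1 lower). Over the 6 classes all genes passed at 4.22% to 8.24% higher and 3.84% to 16.5% lower, then at 3.66% to 7.10% higher and 1.25% to 4.47% lower. Their median log2 ratio in acinar-like cells was 0.20 and -0.26, in acinar-RNA-rich cells 0.38 and 0.22, and in ductal-like cells -0.16 and -0.20. In endothelial-like cells it was -0.31 and 0.12, in fibroblast-like cells -0.25 and -0.10, and in macrophage-like cells -0.37 and -0.04. The medians of all genes lay between -0.08 and 0.03 in these comparisons. In acinar-like cells 65 of the 77 measured were higher in diabetic sedentary than in none, beside 48.4% of all genes. In exercise 70 of 77 were lower than in diabetic sedentary, beside 47.3% of all genes. Each differed by less than 2-fold. With total UMIs in place of TMM the median of all genes in this class was -0.50 and 0.66. These shifts are larger than the medians of the list, so its directions depend on the scaling.

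Among nuclear subunits of acinar-like cells, Ndufv2 of complex I stood at 21.1, 31.6 and 19.1 CPM, with ratios of 1.49 (1.37 to 1.63) and 0.605 (0.536 to 0.681). Cox6a1 of complex IV stood at 68.2, 88.1 and 62.4 CPM, with ratios of 1.29 (1.23 to 1.36) and 0.708 (0.662 to 0.757). Cycs, the electron carrier cytochrome c, had a ratio of 1.57 (1.44 to 1.71) for diabetic sedentary over none. In ductal-like cells Cox8a stood at 712 and 452 CPM in none and diabetic sedentary, a ratio of 0.635 (0.584 to 0.691), and Cox5a at 295 and 208 CPM in diabetic sedentary and exercise, a ratio of 0.705 (0.652 to 0.761). Of complex II, which has no mitochondrial gene, 3 of 4 members were higher and 1 lower in ductal-like diabetic sedentary over none, and 4 of 4 were lower in exercise over diabetic sedentary. Sdhb, the one lower in both, stood at 125, 94.4 and 71.9 CPM, while Sdha had a ratio of 1.13 (0.942 to 1.37) and Sdhd of 1.19 (0.873 to 1.65) over none.

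Genes that copy, transcribe and mature mitochondrial RNA had 0 of 23 measured members 2-fold or more higher and 1 lower in acinar-like cells in diabetic sedentary over none, with a median log2 ratio of 0.27, and 1 higher and 2 lower in exercise over diabetic sedentary, with a median of -0.40. Over all genes the shares higher and lower in this class were 4.22% and 6.20%, then 6.62% and 1.99%, and counts this small cannot be told from them. Polg, the polymerase of mitochondrial DNA, had ratios of 0.527 (0.388 to 0.709) and 1.63 (1.13 to 2.35), and Tfb2m, a transcription factor of mitochondria, 0.524 (0.379 to 0.715) in exercise over diabetic sedentary. Lrpprc, which stabilises mitochondrial messages, had ratios over none of 1.53 (1.15 to 2.05) in acinar-like and 3.03 (1.42 to 7.72) in ductal-like cells of diabetic sedentary.

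The regulators of mitochondrial number were sparse. In acinar-like cells 1 of 6 was higher in diabetic sedentary than in none and 5 were lower (median log2 ratio -0.56, 1 past 2-fold). In exercise 6 of 6 were higher than in diabetic sedentary (median 0.59, 1 past 2-fold). Of all genes, 48.4% and 52.7% were higher in these comparisons. Acinar-RNA-rich cells differed in exercise over diabetic sedentary, with 2 of 6 higher and 4 lower (median -0.08). In that comparison 3 of 5 were higher in ductal-like, 4 of 4 in endothelial-like, 4 of 4 in fibroblast-like and 1 of 2 in macrophage-like cells. Gabpa, a transcription factor subunit, had ratios of 0.620 (0.433 to 0.876) and 1.71 (1.13 to 2.58) in acinar-like cells. Esrra, a nuclear receptor of mitochondrial genes and the one that was higher than in none, stood at 1.96, 3.34 and 4.40 CPM in acinar-like cells, with ratios of 1.71 (1.28 to 2.29) and 1.32 (0.984 to 1.76). Ppargc1a, the coactivator PGC-1alpha, stood at 27.5 and 29.5 CPM in ductal-like cells of diabetic sedentary and exercise, a ratio of 1.07 (0.852 to 1.35). The chaperone and protease list had 0 of 10 members past 2-fold in acinar-like and ductal-like cells in both comparisons, and the list of mitochondrial dynamics and mitophagy 0 of 11. With lists this short, these counts cannot be told from the shares of all genes given above. Lonp1, a protease of the matrix, had ratios of 1.74 (1.44 to 2.10) and 0.698 (0.552 to 0.877) in acinar-like cells, and Pink1, a kinase of mitophagy, 1.37 (1.20 to 1.55) and 0.691 (0.582 to 0.817).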

How the data were processed

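The authors deposited raw UMI counts per gene and barcode for 3 libraries, 1 per group. Per the file headers they came from Cell Ranger 6.1.2, while the submitters' processing notes name 7.1.0. The build is not stated, and all 55450 identifiers matched GENCODE M21 (GRCm38), from which positions and transcript sequences were taken. The members and gene lists were chosen with earlier results of these data known. Copies were found with BLAST 2.17.0. Barcodes needed 500 UMIs and 200 genes, with no mitochondrial ceiling. Scrublet's own threshold marked 0, so the top 5% by score were removed. Cells were clustered with scanpy 1.11.5 (2000 variable genes, 30 components, 15 neighbours, Leiden resolution 1). Counts were summed per class and scaled by TMM (edgeR 4.0.16). Genes with at least 20 UMIs over both libraries were measured, with a prior count of 0.5 in log2 ratios and a 2-fold threshold. Intervals are exact (Poisson ratio, or Clopper-Pearson for shares) and ignore variation between animals. The script was tested on simulated data. Members were named by role, and nuclear genes were drawn from up to 3 per list with the largest absolute log2 ratio among those with 50 UMIs or more in the higher library, in acinar-like and ductal-like cells. Alternatives covered normalization, filters, folds, depth, doublets and ambient RNA.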

Additional observations from a re-analysis of the deposited data

How the results depend on the processing

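With 1 library per group no library could be left out, and no paired analysis was possible because each group has 1 library. The log2 ratio of the summed members was positive in each class and comparison under the alternatives run. As reported, in the order ductal-like, endothelial-like, fibroblast-like, macrophage-like, acinar-RNA-rich and acinar-like, it was 1.08, 1.39, 1.17, 1.68, 1.27 and 2.08 for diabetic sedentary over none, then 0.42, 1.09, 0.64, 1.07, 1.78 and 1.51 for exercise over diabetic sedentary. With DESeq2 size factors they were 1.07, 1.36, 1.17, 1.68, 1.30 and 2.10, then 0.43, 1.10, 0.65, 1.07, 1.74 and 1.49. Per UMIs neither mitochondrial nor acinar they were 1.18, 1.59, 1.35, 1.84, 1.12 and 1.86, then 0.53, 1.14, 0.72, 1.12, 1.87 and 2.02. With acinar RNA subtracted they were 1.10, 1.496, 1.15 and 1.75, then 0.10, 0.68, 0.10 and 0.65. From 1000 UMIs up they were 1.08, 1.38, 1.12, 1.65, 1.25 and 2.08, then 0.42, 1.05, 0.62, 1.03, 1.82 and 1.52. Without barcodes above 10% they were 1.05, 1.20, 1.03, 1.40, 1.11 and 2.08, then 0.29, 0.73, 0.44, 0.65, 1.49 and 1.14. Without barcodes above 20% they were 1.08, 1.38, 1.16, 1.63, 1.18 and 2.08, then 0.40, 0.96, 0.58, 0.95, 1.81 and 1.48. From 2000 to 5000 UMIs they were 1.39, 1.30, 1.08, 1.53, 1.92 and 1.78, then 0.61, 0.93, 0.71, 0.83, 1.14 and 0.86. With doublets kept they were 1.05, 1.19, 1.17, 1.62, 1.54 and 2.05, then 0.44, 0.87, 0.54, 1.10, 1.57 and 1.49. At resolution 0.5 they were 1.13, 1.39, 1.17, 1.42, 1.62 and 1.60, then 0.58, 1.08, 0.63, 0.80, 1.15 and 1.51. At resolution 2 they were 1.08, 1.34, 1.17, 1.68, 1.29 and 2.04, then 0.42, 1.10, 0.66, 1.05, 1.72 and 1.51. Thinned to 1000 UMIs they were 1.21, 1.48, 1.40, 2.15, 1.63 and 1.77, then 0.58, 1.07, 0.76, 1.06, 1.40 and 1.44. With total UMIs they were 1.32, 1.90, 1.504, 1.88, 0.82 and 1.59, then 0.57, 0.93, 0.76, 1.04, 1.84 and 2.14. The subtraction was not run for the acinar classes, whose own RNA it removes. Without cluster 10, led by macrophage genes, the acinar-RNA-rich values were 1.24 and 1.67. That omission, the range of 2000 to 5000 UMIs and the addition of copies, which kept each sum within its interval, were chosen after seeing the data. The cause of these shifts was not tested. With total UMIs the median of all genes shifted by -0.50 and 0.66 in acinar-like cells.

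Of 178 alternative counts of members 2-fold or more higher, 169 stayed within 1.5 times the reported count. Without the minimum of 20 UMIs, 11 members (reported 5) were higher in ductal-like exercise over diabetic sedentary, 17 (11) in fibroblast-like and 20 (12) in macrophage-like diabetic sedentary over none, and 12 (7) in macrophage-like exercise over diabetic sedentary. In exercise over diabetic sedentary, the 10% ceiling gave 5 (9) in endothelial-like cells, a 1.5-fold threshold 10 (5) in fibroblast-like and 11 (7) in macrophage-like cells, and cells of 2000 to 5000 UMIs 9 (16) in acinar-RNA-rich and 7 (14) in acinar-like cells. As a median over cells the mitochondrial share was 3.23% and 4.67% in ductal-like diabetic sedentary and exercise, 1.25% and 4.56% in endothelial-like none and diabetic sedentary, 3.86% and 6.20% in fibroblast-like and 4.17% and 7.86% in macrophage-like diabetic sedentary and exercise, 0.984%, 1.98% and 6.50% in acinar-RNA-rich and 0.525%, 1.57% and 6.54% in acinar-like cells. With the 13 protein genes as the total, mt-Cytb held 42.8%, 41.5% and 38.2% in ductal-like, 40.8%, 37.8% and 34.7% in endothelial-like, 42.2%, 38.9% and 35.9% in fibroblast-like, 39.2%, 36.3% and 35.1% in macrophage-like, 41.5%, 37.2% and 36.1% in acinar-RNA-rich and 42.2%, 39.8% and 37.1% in acinar-like cells, so its decline from none to exercise was also present among the messages alone. Members with few UMIs, above all the transfer RNAs, were limited by depth.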
